A study of Mus musculus with 3 samples.

Results

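The genes described here are Gata3 and the Th2 cytokine locus: Gata3 on chromosome 2, and Il4, Il13, Rad50 and Il5, which follow one another in that order on chromosome 11. They were taken by name as 5 of the 19938 genes measured by a probe that matches 1 gene symbol, and each was read by 1 such probe (10479981 for Gata3, 10385832 for Il4, 10385837 for Il13, 10385842 for Rad50 and 10376054 for Il5). Rad50 was included for its position between Il13 and Il5.

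The samples were 3 cultures of mouse CD4 T cells from the OT-II strain, B6.Cg-Tg(TcraTcrb)425Cbn/J, whose T cells carry a transgenic receptor for an ovalbumin peptide. Splenic cells sorted as naive (CD4+CD25-CD62LhighCD44low) were stimulated with that peptide on T-cell-depleted splenic antigen-presenting cells of Il23a-/- mice, so the presenting cells of all 3 groups lacked that subunit of IL-23. The Th0 culture had no added cytokine, the Th22 culture had IL-6, and the Th17 culture had IL-6 with TGFβ. Cells were purified on magnetic beads at 60 hours and each group was measured on 1 biotin-labelled Affymetrix array. The names Th22 and Th17 thus stand for culture conditions, not for cells sorted by what they secrete, and the sources used here give neither the ages nor the number of the animals. No difference below has a replicate check, and no test could be made.

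GATA3 is the zinc-finger transcription factor that directs naive CD4 T cells into the Th2 program, and it binds regulatory DNA of the Il4, Il5 and Il13 genes. IL-4 acts through its receptor and STAT6 to raise Gata3 further, so that factor and cytokine form a positive loop. Il4 and Il13 lie beside each other, and Il5 lies on the other side of Rad50, a housekeeping DNA repair gene whose introns hold the Th2 locus control region that acts on the cytokine genes around it.

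The 250 bases before the annotated start of the 4 Th2 genes are shown for 2 reasons. Each of these genes was at least 2-fold lower in Th22 and in Th17 than in Th0, and GATA3 is known to bind the Il5 and Il13 promoters. They come from RefSeq, build GRCm38.p6, read 5′ to 3′ along each gene. Capitals mark matches on either strand to a GATA hexamer, the letters GATA with an A or T just before them and an A or G just after them.
Gata3, chr2:9878601-9878850, minus strand: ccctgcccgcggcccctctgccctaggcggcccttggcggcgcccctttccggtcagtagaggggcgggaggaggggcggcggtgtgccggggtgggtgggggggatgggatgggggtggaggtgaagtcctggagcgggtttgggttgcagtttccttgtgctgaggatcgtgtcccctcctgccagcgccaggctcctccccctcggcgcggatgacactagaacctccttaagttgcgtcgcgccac
Il4, chr11:53618666-53618915, minus strand: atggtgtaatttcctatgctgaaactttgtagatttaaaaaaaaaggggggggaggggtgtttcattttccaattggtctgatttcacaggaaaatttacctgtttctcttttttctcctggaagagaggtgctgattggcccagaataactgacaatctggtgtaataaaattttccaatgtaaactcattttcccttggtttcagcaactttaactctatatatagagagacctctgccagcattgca
Il13, chr11:53634703-53634952, minus strand: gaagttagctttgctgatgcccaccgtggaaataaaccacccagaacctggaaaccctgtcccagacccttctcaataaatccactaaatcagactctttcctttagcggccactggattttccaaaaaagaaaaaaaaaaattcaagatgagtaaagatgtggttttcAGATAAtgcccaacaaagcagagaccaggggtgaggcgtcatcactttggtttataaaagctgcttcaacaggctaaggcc
Il5, chr11:53720544-53720793, plus strand: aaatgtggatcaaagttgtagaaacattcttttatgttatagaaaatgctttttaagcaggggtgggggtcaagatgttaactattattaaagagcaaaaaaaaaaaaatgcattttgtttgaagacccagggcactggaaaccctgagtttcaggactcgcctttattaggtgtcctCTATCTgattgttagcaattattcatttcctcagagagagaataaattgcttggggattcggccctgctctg
The Il13 window held 1 match, AGATAA, from 81 to 76 bases before the start. The Il5 window also held 1, read on the other strand as AGATAG, from 72 to 67 bases before the start. The Gata3 window and the Il4 window shown held 0, and a window before another annotated Il4 start (chr11:53617339-53617588) held 1, from 80 to 75 bases before it. Of all 32851 windows of this length in the table, 26.5% held at least 1 such hexamer, so a match is a common feature. The core GGAAA bound by NFAT factors, searched on both strands, occurred 5 times in the Il4 window shown, 4 times in that of Il13, 2 times in that of Il5 and 2 times in that of Gata3, and in 55.6% of all windows at least once. The spacing bound by STAT6, TTC and GAA with any 4 bases between them, occurred in the Il4 window shown, as TTCACAGGAA from 167 to 158 bases before the start, where the last bases overlap a GGAAA match, and in none of the other member windows. It occurred in 5.85% of all windows. Of the 5 genes, Rad50 had no entry in the promoter table.

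The deposited values are offsets from the middle value that a probe had on the 3 arrays, on a scale taken to be log2 with higher values for more RNA, so they compare arrays for 1 gene and say nothing of its absolute level. All 5 genes were highest in Th0, intermediate in Th22 and lowest in Th17, an order held by 9.72% of all genes. Because Th22 lay in the middle, its value is 0 for each of the 5. Each of the 5 probes gave 3 different values, as did 35.4% of probes.

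Gata3 had deposited values of 1.81 in Th0, 0 in Th22 and -2.65 in Th17. Taking the Th0 signal as the whole, 28.5% of it was left in Th22 and 4.55% in Th17. Relative to Th0, Gata3 was 3.50-fold lower in Th22 and 22.0-fold lower in Th17, and it was 6.27-fold lower in Th17 than in Th22. The 3 arrays were thus well separated for Gata3, with Th17 below both others. Quantile normalization of these offsets, which forces the same spread on every array, put Gata3 at 2.93-fold lower in Th17 than in Th22. In RNA of a whole culture, fewer cells with the transcript and less transcript per cell cannot be told apart.

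Il4, which encodes the cytokine that drives Th2 differentiation and class switching to IgE, had values of 2.20 in Th0, 0 in Th22 and -0.41 in Th17. It was 4.60-fold lower in Th22 and 6.13-fold lower in Th17 than in Th0, with 21.8% and 16.3% of the Th0 signal left. Th0 stood apart from both cultures given IL-6, which lay close together.

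Il13, whose product acts on airway and gut epithelium and mucus, had values of 2.94 in Th0, 0 in Th22 and -1.09 in Th17. Relative to Th0 it was 7.68-fold lower in Th22 and 16.3-fold lower in Th17, and it was 2.13-fold lower in Th17 than in Th22. Of the 3 cytokine genes Il13 differed most in each comparison. Quantile normalization put its difference between Th17 and Th22 at -0.66 log2, short of 2-fold.

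Il5, which encodes the growth and survival factor of eosinophils, had values of 1.65 in Th0, 0 in Th22 and -0.25 in Th17. It was 3.14-fold lower in Th22 and 3.73-fold lower in Th17 than in Th0, the smallest differences of the 3 cytokine genes. Il5 showed the same shape as Il4, with Th0 apart and the other arrays near each other.

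Rad50, a subunit of the MRE11-RAD50-NBN complex that senses and tethers broken DNA ends, had values of 0.44 in Th0, 0 in Th22 and -0.19 in Th17. It was 1.35-fold lower in Th22 and 1.54-fold lower in Th17 than in Th0, inside the 2-fold threshold in both. Rad50 kept 64.9% of its Th0 signal in Th17, where its neighbour Il13 kept 6.12% and its neighbour Il5 26.8%.

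**Figure D1:**
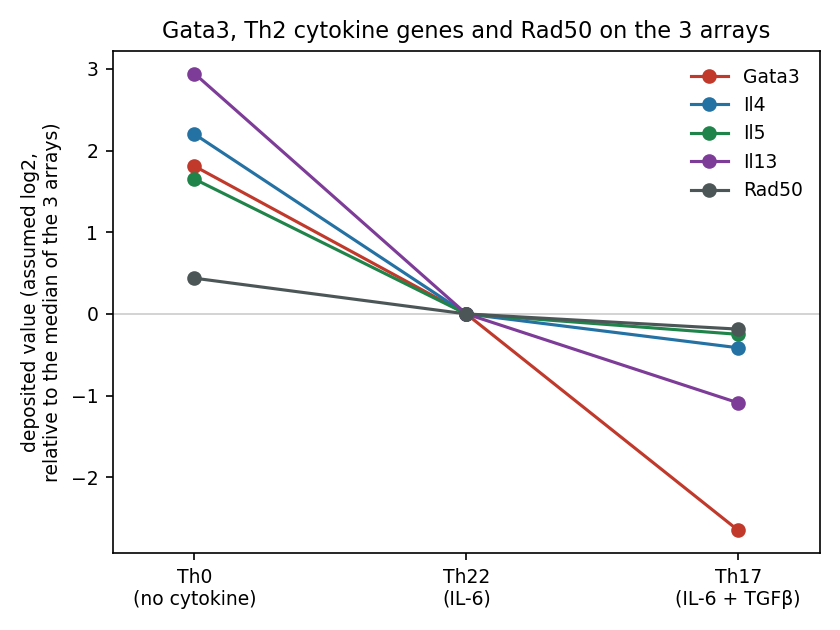
Deposited values of Gata3, Il4, Il5, Il13 and Rad50 (vertical axis, assumed log2 relative to each probe's median) on the Th0, Th22 and Th17 arrays (horizontal axis), 1 point per array, with lines joining the points of a gene. All 5 genes are highest in Th0 and lowest in Th17, where Gata3 is at -2.65 and Il5 at -0.25.

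Genes at least 2-fold apart between arrays were counted as different. Gata3, Il4, Il5 and Il13, 4 of the 5 genes, lay at least 2-fold below Th0 in Th22, against 0.261% of all genes. After quantile normalization the 4 were still past 2-fold, but the count over all genes changed from 52 lower and 109 higher to 158 lower and 150 higher. In Th17 against Th0 the same 4 genes were at least 2-fold lower, against 1.56% of all genes. In Th17 against Th22 only Gata3 and Il13 were, against 1.5% of all genes. The comparisons with Th0 share the Th0 array, so the 4 genes lower in both, where 0.231% of all genes were, do not count as found in separate samples. The median of the 5 differences was -1.81 log2 in Th22 against Th0, -2.62 in Th17 against Th0 and -0.41 in Th17 against Th22, with a median over all genes of 0 in each.

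Ordered from the most negative difference of all 19938 genes, Il13 held rank 4 in Th22 against Th0, Il4 rank 13, Gata3 rank 17, Il5 rank 21 and Rad50 rank 273. In Th17 against Th0 the order within the group changed: Gata3 held rank 10, Il13 rank 13, Il4 rank 50, Il5 rank 108 and Rad50 rank 618. In Th17 against Th22, Gata3 held rank 34 and Il13 rank 257, while Il4, Il5 and Rad50 lay at ranks 1082, 1787 and 2260. The cytokine genes thus ranked nearest the extreme in the comparison of IL-6 alone with no cytokine, and Gata3 in the comparison of Th17 with Th0.

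The only repeat measurement in the table is between separate probes of a gene, which none of the 5 genes has. Over the 999 genes that have several, the probes of 95% lay within 0.34 log2 of each other in Th22 against Th0, 0.43 in Th17 against Th0 and 0.41 in Th17 against Th22. Over those with a probe that differed between both arrays, the widths were 0.38, 0.49 and 0.47 log2. Gata3, Il4, Il5 and Il13 differed by more than these widths between Th0 and either other array. Rad50 (0.44 and 0.62 log2 lower) lay just outside them, but of the 32 and 48 such genes whose mean difference was at least as large as its own, 31.3% and 20.8% had probes further apart than that, so its difference is not secured. Between Th22 and Th17, Gata3 and Il13 lay outside the widths, while Il4 (0.41 log2), Il5 (0.25) and Rad50 (0.19) did not lie outside the wider one, so the order of Th22 and Th17 is not resolved for these 3. These widths come from genes of any difference, and probes of a gene that differs more can lie further apart. The pair of Irf1, for example, gave -1.96 and -0.34 log2 in Th17 against Th0. Only for Rad50 was the check made at its own size, so the widths do not secure the larger differences either, including that of Il13 between Th22 and Th17. They cover probe error and leave out the spread between cultures.

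The difference between Th0 and Th17 was split at Th22, whose measured value lay between them for each gene. For Il4, Il5 and Rad50 the part between Th22 and Th17 was within probe error, so their shares are not resolved from the whole. For Il5, 86.9% of the log2 difference was reached in Th22, for Il4 84.2%, for Il13 73.0% and for Rad50 70.1%. For Gata3 it was 40.6%, so the larger part, 59.4%, lay between Th22 and Th17. Among the 311 genes that lay at least 2-fold below Th0 in Th17, the median share reached in Th22 was 18.4%, and 18.6% of them had a share over 50%. Il4, Il5 and Il13 are in that minority, and Gata3 is not. This split depends on scaling: after quantile normalization the share was 58.4% for Gata3, 90.4% for Il4, 92.4% for Il5 and 84.0% for Il13, and the median over the 218 genes then past 2-fold was 56.3%. Gata3 kept a lower share than each cytokine gene under both scalings, but which of its steps was larger turned. The normalization acted on values already centred on each probe's median, and their spread on an array also depends on that centring. It therefore cannot decide which split is the better one.

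**Figure D2:**
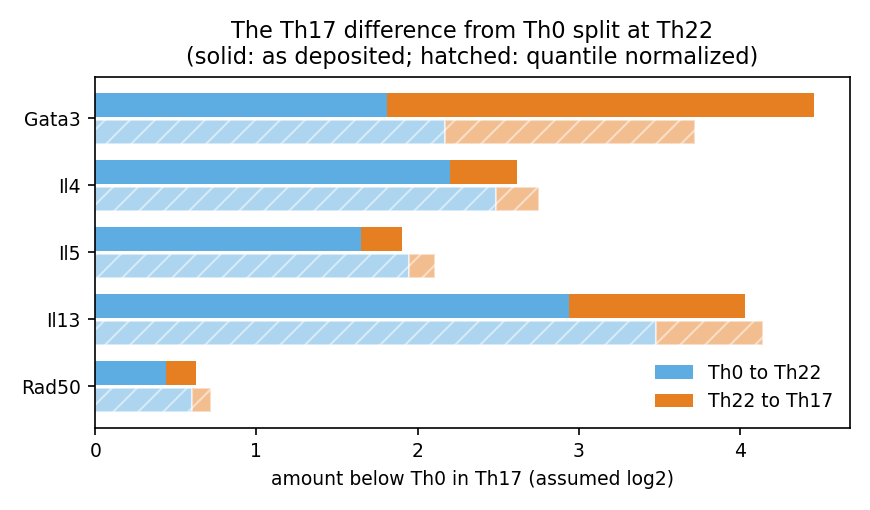
The amount by which each gene lay below Th0 in Th17 (horizontal axis, assumed log2), divided into the part between Th0 and Th22 (blue) and the part between Th22 and Th17 (orange), as deposited (solid) and after quantile normalization (hatched). The blue part is 40.6% of the solid bar for Gata3 and 86.9% for Il5.

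The neighbouring genes on chromosome 11 show where along the chromosome the differences lay. From Hspa4 to Acsl6 the table measures 23 genes, 19 of them besides Il4, Il13, Rad50 and Il5. The nearest on the Il4 side is Kif3a, which encodes a motor subunit used in cilia. It had values of 0.28 in Th0, 0 in Th22 and -0.41 in Th17, the same order as the cytokine genes within 2-fold. Septin8, next to it, was 0.11 log2 lower in Th22 and 0.26 lower in Th17 than in Th0, and Sowaha, Shroom1, Gdf9 and Leap2 were equal on all 3 arrays. The nearest on the Il5 side is Irf1, an interferon-induced transcription factor gene, with values of 0.63, 0 and -0.52. Its mean in Th17 lay 2.22-fold below Th0, but its pair of probes gave -1.96 and -0.34 log2, so this rests on 1 probe.

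Of the 19 other genes, 1 lay at least 2-fold below Th0 in Th22 and 4 in Th17, against 0.261% and 1.56% of all genes, and 0 lay above it in either. The one lower in both was Csf2, which encodes the growth factor GM-CSF, with values of 2.55 in Th0, 0 in Th22 and -0.18 in Th17, a shape close to that of Il4. Il3, a growth factor gene beside Csf2, had values of 0.68, 0 and -4.87, so 12.3% of its log2 difference was reached in Th22, a smaller share than for Gata3. Acsl6, a fatty acid activating enzyme gene next to Il3, was equal in Th0 and Th22 and 1.71 log2 lower in Th17. Between Irf1 and Csf2, Slc22a5, Slc22a21, Slc22a4, Pdlim4 and P4ha2 lay within 2-fold in each comparison. The genes past 2-fold were therefore not next to each other throughout: Rad50 lay among them within 2-fold, and these 5 genes lay between Irf1 and Csf2.

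**Figure D3:**
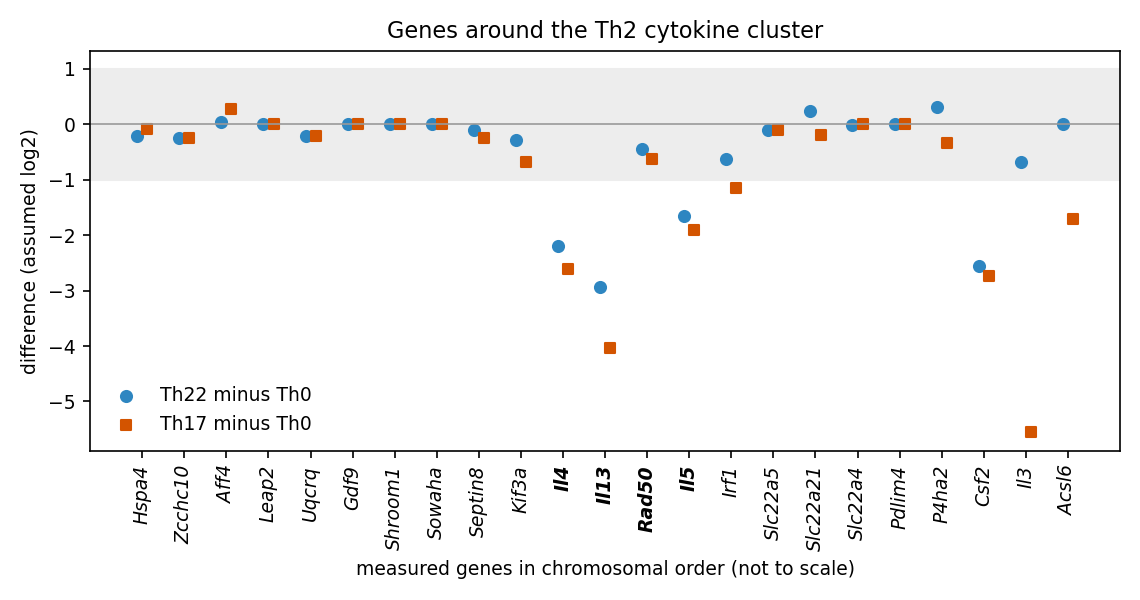
Differences from Th0 (vertical axis, assumed log2) of the 23 measured genes around the Th2 cytokine cluster in chromosomal order, evenly spaced; circles are Th22 minus Th0, squares Th17 minus Th0, and the grey band is within 2-fold. Il4, Il13, Il5 and Csf2 lie below the band in both, and Rad50 within it.

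Genes with a pattern most like each of the 5 were found by the Euclidean distance over the pair of differences from Th0, which use all 3 arrays. The nearest to Gata3 was Serpinb9 (distance 0.66 log2), which encodes an inhibitor of granzyme B, followed by Gpm6b (0.76), Tbx21 (0.88), Lad1 (0.94) and Plxnc1 (0.97). Tbx21 encodes T-bet, the Th1 factor that opposes GATA3. It was 2.27-fold lower in Th22 and 14.3-fold lower in Th17 than in Th0, so both lineage factor genes were lowest in Th17. The nearest to Il13 was Ifng (0.33), which encodes the Th1 cytokine interferon-γ, then Iigp1 (0.77), Lad1 (0.96), Fasl (1.09) and Gata3 itself (1.21). The nearest to Il4 were Pros1 (0.10), Csf2 (0.37), Epas1 (0.37), Gm4951 (0.38) and Cd83 (0.39), and to Il5 C1ql3 (0.16), Scin (0.17), Ube2l6 (0.27), Efna5 (0.38) and Pter (0.42). Within 0.25 log2 there were 0 genes for Gata3 and Il13, 1 for Il4 and 2 for Il5, against 230 for Rad50, whose nearest were Orc6, Mtrr, Dnase1l3, Cers6 and Itgb1.

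**Figure D4:**
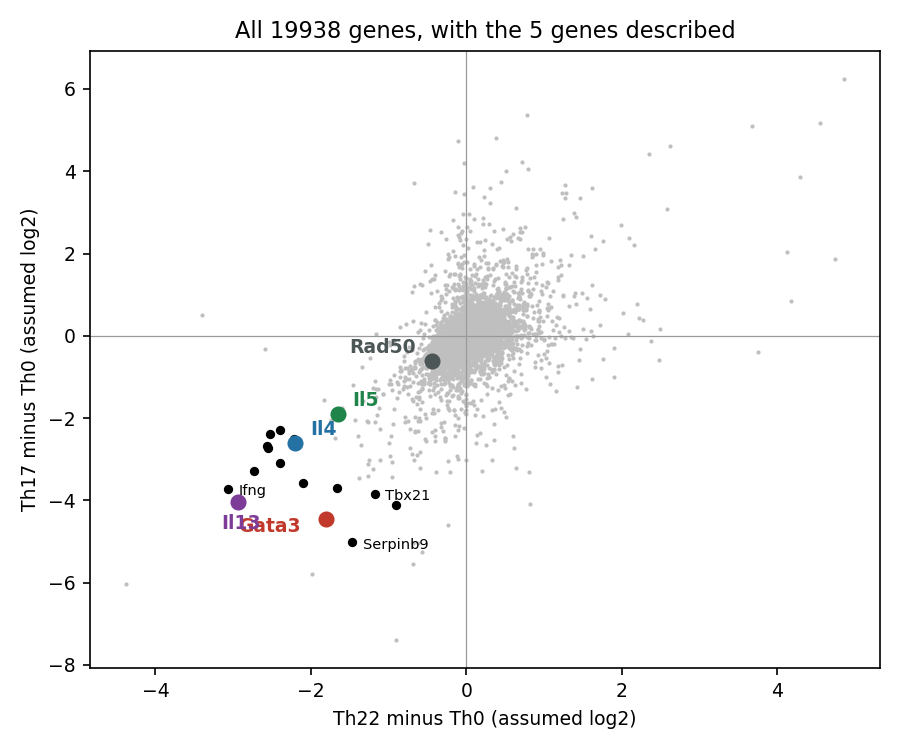
Difference from Th0 of Th22 (horizontal axis) and of Th17 (vertical axis), both assumed log2, for all 19938 genes (grey); the 5 genes are coloured, and black points are the 5 genes nearest to Gata3, Il4 or Il13. Both axes use the same Th0 array. Gata3 and the cytokine genes lie at the lower left, away from the main cloud, and Rad50 lies at its edge.

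Among the other GATA family genes, Gata1, Gata2, Gata4 and Gata6 were equal on all 3 arrays and Gata5 differed by at most 0.05 log2. Gata3 was the 1 of 6 family members past 2-fold, and it was lower in each comparison. Of all genes 0.261% were that much lower in Th22 against Th0, 1.56% in Th17 against Th0 and 1.5% in Th17 against Th22. Of all genes 37.7% were equal on all arrays, and equal values cannot be told from a signal that was not detected.

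The genes that receive and pass on these cytokine signals mostly lay within 2-fold. Of 17 measured, 1 was at least 2-fold higher and 0 lower in Th22 than in Th0, against 0.547% of all genes higher, with a median of 0. That gene was Il13ra1, which encodes a chain of the receptor for IL-13 and IL-4. It was 4.04-fold higher in Th22 than in Th0 and 2.76-fold lower in Th17 than in Th22, the reverse of Il13 itself in the first comparison. In Th17 against Th0, 1 of the 17 was higher, against 1.47% of all genes: the feedback inhibitor gene Socs3 (2.13-fold), where 1 of its pair of probes lay short of 2-fold. Il4ra, the shared receptor chain gene, differed by at most 0.0012 log2 over the 3 arrays, and Stat6, the factor that IL-4 activates, was 0.09 log2 higher in Th22 and 0.14 lower in Th17 than in Th0. Il5ra, Csf2rb and Il13ra2 were equal on all 3 arrays, and equal values cannot be told from a signal that was not detected.

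Of 22 measured genes known to raise Gata3 or Th2 cytokine expression, 0 passed 2-fold in Th22 against Th0 as deposited. That count is near the shares of all genes, 0.261% lower and 0.547% higher. Gfi1 (-1.19 log2) and Notch2 (-1.52 log2) passed 2-fold after quantile normalization, where 0.792% of all genes were that much lower. In Th17 against Th0, 1 was higher and 2 were lower, against 1.47% and 1.56% of all genes, and the median difference was 0.0021 log2. The higher gene was Maf, which encodes c-Maf, an activator of the Il4 promoter. Its difference from Th0 was 0.72 log2 in Th22 and 4.23 in Th17, opposite in sign to that of Il4. The lower genes were Il2 (9.91-fold), whose product supports Th2 differentiation through STAT5, and Gfi1 (2.87-fold), which favours the growth of Th2 cells. Il2 differed little between Th22 and Th0 (0.21 log2 lower), as did Junb, Irf4, Batf, Stat5a, Stat5b and Notch1 (each within 0.29 log2).

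Of 14 measured genes known to restrain Gata3 or the Th2 cytokines, 1 (Tbx21) lay at least 2-fold below Th0 in Th22, against 0.261% of all genes, and 0 were higher. In Th17 against Th0, 3 were higher and 2 lower, against 1.47% and 1.56% of all genes, and the median difference was -0.12 log2. Foxp3, the regulatory T cell factor gene, was 11.3-fold higher, Bcl6, the follicular helper factor gene, 4.04-fold and Runx1, a Runt factor gene, 2.32-fold. Tbx21 and Zbtb32, which encodes a repressor of GATA3 (2.08-fold), were lower. Zfpm1, which encodes FOG-1, a GATA3 cofactor that dampens its activity, was 0.89 log2 lower in Th17, and Runx3 0.23 log2 lower. After quantile normalization Runx1 fell short of 2-fold (0.80 log2), and Eomes, a T-box factor gene, passed it in both cultures (-1.08 log2 in each, against -0.79 as deposited).

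The other Th2-associated genes did not share one pattern. Of 19 measured, 3 lay at least 2-fold above and 3 below Th0 in Th22, where 0.547% and 0.261% of all genes did. In Th17, 2 lay above and 3 below Th0, where 1.47% and 1.56% of all genes did, with medians of -0.09 and -0.0047 log2. Epas1, which encodes HIF-2α, was 5.92-fold lower in Th22 and 6.43-fold lower in Th17, near Il4 in both. The chemokine receptor gene Ccr8 had the values 6.03-fold lower in Th22 but 1.26-fold lower in Th17, and Il9 10.5-fold lower in Th22 but 1.42-fold higher in Th17. The lipid-sensing receptor gene Pparg (2.41-fold) and Il24 (2.16-fold) were lower in Th17 than in Th0, Pparg only as deposited (-0.80 log2 after quantile normalization). Quantile normalization also put Ccr3 (1.23 log2 higher), Il10 (-1.74) and Il24 (-1.10) past 2-fold in Th22 against Th0. Ecm1, which encodes a secreted matrix protein, was 2.28-fold higher in Th22, Atp6v0d2, a proton pump subunit gene, 2.91-fold and Tnfrsf8, which encodes CD30, 2.06-fold. Tnfrsf8 (2.46-fold) and Il10 (13.2-fold) were the pair higher in Th17 than in Th0. Ptgdr2, Il17rb, Il31 and Cd200r1 lay within 0.30 log2 on all arrays. In Th17 against Th22, 3 of the 19 were higher, against 1.1% of all genes, namely Il10 (21.1-fold), Il9 and Ccr8, and 2 were lower, against 1.5% of all genes, namely Pparg (2.27-fold, within 2-fold after quantile normalization) and Atp6v0d2 (3.05-fold).

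Rad50 was also set beside its own pathway. Of all genes, 0.261% were at least 2-fold lower and 0.547% higher in Th22 than in Th0. The shares were 1.56% and 1.47% in Th17 against Th0, and 1.5% and 1.1% in Th17 against Th22. Of 14 other measured genes of the Rad50 complex and of double-strand break repair, 0 passed 2-fold in any of the 3 comparisons, a count near these shares. To any extent, 13 were lower in Th17 than in Th0, where 28.1% of all genes and 52.7% of the genes that differed between both arrays were, and their median was -0.19 log2. Atm, the kinase gene activated by the complex, was 0.67 log2 lower in Th17 and 0.27 lower in Th22, close to Rad50. Exo1, a nuclease gene, was 0.82 log2 lower in Th17, and Nbn, the partner subunit gene, 0.30 lower, although 1 of its probes was equal on all arrays. Rad52 was the one higher gene (0.98 log2).

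Markers of other cell types that the cultures could hold were also read. Of all genes, 0.547% were at least 2-fold higher and 0.261% lower in Th22 than in Th0, and 1.47% higher and 1.56% lower in Th17. Between Th17 and Th22, 1.1% were higher and 1.5% lower in Th17. Of 12 mast cell and basophil markers 0 passed 2-fold and 6, including Cpa3 and Fcer1a, were equal on all arrays, against 37.7% of all genes. Their differences from Th0 lay between -0.07 and 0.45 log2 in Th22 and between -0.04 and 0.85 in Th17, Kit being the highest. Of 6 eosinophil markers 0 passed 2-fold, and Ccr3 differed most (0.98 log2 higher in Th22). Of 7 NKT and ILC2 genes Rora passed 2-fold (2.62-fold higher in Th22 and 7.94-fold in Th17 than in Th0), and Icos was 2.11-fold lower in Th17 than in Th22. The rest of that list, Zbtb16, Il17rb, Id2, Klrg1 and Klrb1c, lay within 0.30 log2 on all arrays, so the list did not move as a set. Of 9 B cell markers Ebf1 did (3.07-fold higher in Th22 and 2.08-fold lower in Th17), and of 13 myeloid and dendritic markers 0 did. After quantile normalization Ebf1 in Th17 against Th0 (-0.65 log2) and Icos in Th17 against Th22 (-0.86 log2) were within 2-fold, and Ccr3 was past it in Th22. Of 11 pan T cell genes Trat1, which encodes an adaptor of the T cell receptor, lay 9.96-fold below Th0 in Th17. The other 10 lay within 2-fold, with a list median of 0.13 log2 in Th22 and -0.17 in Th17. In Th17 against Th22 all 11 were lower to any extent, against 26.3% of all genes and 47.3% of the genes that differed. Their median was -0.32 log2, a larger difference than those of Il5 and Rad50 there. The summed levels of these lists cannot be given, because the centring removed them, and the part of any of these cells, or of the lower T cell genes in Th17, in the Gata3, cytokine and Rad50 differences was not tested.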

How the data were processed

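Total RNA of 3 samples was measured on 1 array each. The authors' deposited table holds values taken to be log2 for 28853 probes; the middle of the 3 values was 0 for 28853 of them, so each probe was centred on its own median. The software, background correction, normalization, log base and genome build were not given in the sources used here. Of the probes 11627 were equal on all 3 arrays and 7007 on 2; where 2 were equal the third was higher for 3390 and lower for 3617, so ties were not only at a low limit. Whether a low value sits on a limit is unknown, and any fold could then be understated.

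Of 21789 probes with 1 symbol in the platform annotation, 21698 were renamed by Entrez identifier from a GRCm38.p6 gene table, used otherwise only for gene order. Probes of a gene were averaged (pandas 2.3.3, Python 3.11.15), giving 19938 genes; 7507 (37.7%) were equal on all arrays. A gene counted as different at 2-fold or more. The counting was tested on simulated data without the ties and centring of the deposited values, which checks the code and not the counts given here.

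The 5 genes, the 14 gene lists and the boundaries of the chromosome 11 stretch were chosen with earlier results of these data known, so no list is independent evidence. Named genes were the 5 genes, list members past 2-fold or defining a role, the 5 nearest genes to each by distance, and chromosomal neighbours. Alternatives were quantile normalization of the centred values, another centring, the widest-ranging probe and probes with several symbols. Other thresholds, natural logs and leaving out genes equal on all arrays were also run. List members without a single-symbol probe were not analysed here.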

Additional observations from a re-analysis of the deposited data

How the results depend on the processing

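Each of the 15 differences of the 5 genes between arrays stayed negative under each alternative run. Most of these runs could not change a sign: natural logs only rescale the differences, and other settings left the values of the 5 genes as they were. Quantile normalization did change the values, but it keeps their order within each array. The unchanged signs are therefore little of a check. Choosing the widest-ranging probe or keeping probes with several symbols changed none of the 26 values recomputed under each by more than probe error. For counts the limit was 1.5 times. The 5 genes have 1 probe each, so choosing a probe leaves their values unchanged by construction and tests only the counts over all genes. Genes past 2-fold in either direction in Th22 against Th0 numbered 161 in the main run, 164 with the widest-ranging probe and 169 with several symbols kept. The median of the probes that differ was 0 on each array. Centring on it therefore subtracts 0 and changes no value, by construction, so it is no check. Leaving out genes equal on all arrays changes no count, by construction.

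Quantile normalization gave differences of -2.17 for Gata3, -2.49 for Il4, -1.95 for Il5, -3.48 for Il13 and -0.60 log2 for Rad50 in Th22 against Th0. It gave -3.72 for Gata3 and -2.11 for Il5 in Th17 against Th0, and -1.55 for Gata3 and -0.66 for Il13 in Th17 against Th22, leaving 1 of the 5 genes past 2-fold there. The share reached in Th22 became 58.4% for Gata3, 90.4% for Il4 and 84.0% for Il13, and 308 genes passed 2-fold in Th22 against Th0 in place of 161. The cause was not tested.

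If the values are natural logs, the differences in log2 units are larger by construction. In Th22 against Th0 they become -2.61 for Gata3, -3.18 for Il4, -2.38 for Il5, -4.24 for Il13 and -0.63 for Rad50. In Th17 against Th0 they become -6.43, -3.77, -2.74, -5.82 and -0.90 in the same order, and in Th17 against Th22 -3.82 for Gata3, -0.60 for Il4 and -1.57 for Il13. The genes past 2-fold in either direction become 343, 1021 and 859 for Th22 against Th0, Th17 against Th0 and Th17 against Th22. In that order 480, 1260 and 1093 genes passed 1.5-fold, and 35, 184 and 138 passed 4-fold. Of the 5 genes, Il4 and Il13 (2) passed 4-fold in Th22 against Th0, Gata3, Il4 and Il13 (3) in Th17 against Th0, and Gata3 (1) in Th17 against Th22. All 5 passed 1.5-fold in Th17 against Th0. With 1 array a group no array could be left out, and signal over background is unknown.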
